A study of Homo sapiens with 26 samples.

Results

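Collagens are the main fibrous proteins of the extracellular matrix, and the collagen genes and the enzymes that modify their products were examined in 26 single cell-derived cell lines (SCDCLs) of pancreatic ductal adenocarcinoma. The set was chosen by gene symbol, as every protein-coding gene named COL, a number, A and a number, together with the prolyl 4-hydroxylase subunits P4HA1 to P4HA3, the lysyl hydroxylases PLOD1 to PLOD3, LOX and LOXL1 to LOXL4. It held 55 of the 41078 genes in the table, 44 for collagen chains and 11 for enzymes. Of the 55 genes, 34 had a median of at least 1 TPM (the share of all transcripts, corrected for transcript length) in 1 or both sets of libraries defined below. A further 9 reached 1 TPM in some library, and 12 stayed below 1 TPM in every library, among them COL1A2, COL10A1 and COL4A3.

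Every library is the mRNA of 1 SCDCL, grown from a single cell of BxPC3 or Panc-1 by limiting dilution, and 12 libraries are labelled BxPC3 and 14 are labelled Panc1. Both are established lines, and no SCDCL was sequenced more than once, so differences between clones cannot be told apart from those of culture and library preparation. Cells were grown in DMEM high glucose with fetal bovine serum. Gemcitabine is given as the treatment of all 26 libraries in the labels, whereas the methods describe it for viability assays on separate cells. The total ranged from 27035724 to 34945608 estimated counts, with a median of 29623513.

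The labels were checked against SMAD4, which is known to be deleted in BxPC3 and retained in Panc-1. SMAD4 was at 0 to 0.0440 TPM in 12 libraries and at 28.1 to 52.2 TPM in the other 14, and both sets mixed the labels. The 12 SMAD4-low libraries were 5 labelled BxPC3 and 7 labelled Panc1, and the 14 SMAD4-expressing libraries were 7 labelled BxPC3 and 7 labelled Panc1. The 7 SMAD4-low libraries labelled Panc1 and the 7 SMAD4-expressing libraries labelled BxPC3 thus went against the SMAD4 state known for the labelled line. VIM, an intermediate filament of mesenchymal cells, was at 1.42 to 73.2 TPM in the SMAD4-low libraries and at 3047 to 4526 TPM in the SMAD4-expressing libraries. CDH1, the epithelial cadherin, had the opposite order, at 90.8 to 198 TPM against 0.338 to 7.74 TPM. CDKN2A, known to be deleted in both lines, was at 0 in all 26. Because SMAD4 is a measured value, the sides it defines are described by their levels, and no test between them was made. The sides differ in many genes besides SMAD4, so SMAD4 and the other differences cannot be told apart. Whether the sides are BxPC3 and Panc-1 themselves was not tested, and the labels were kept as given. The labels, which are the study's groups, were tested, and those tests stand near the end.

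Collagen chains are assembled in threes into a triple helix in the endoplasmic reticulum, and each type builds its own kind of structure. Fibrillar collagens form cable-like fibrils, type IV forms the sheet of the basement membrane under epithelia, type VII anchors that sheet to the tissue below, and type XVII crosses the cell membrane in hemidesmosomes. Prolyl 4-hydroxylases stabilize the helix, lysyl hydroxylases prepare it for glycosylation and cross-linking, and the secreted lysyl oxidases begin the cross-links. In pancreatic cancer most of the dense collagen is attributed to fibroblasts, and these cultures contain tumor cells grown alone.

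Of the 10 genes of the set that were higher throughout the SMAD4-low libraries, COL17A1, COL4A5 and COL4A6 had the highest medians there. The 3 that were higher throughout the SMAD4-expressing libraries were COL18A1, COL21A1 and LOXL2. A gene was counted where every library of one side was above every library of the other and the medians were at least 2-fold apart. The genes higher on the SMAD4-low side were COL4A5, COL4A6, COL6A1, COL7A1, COL8A1, COL12A1, COL17A1, COL27A1, COL28A1 and LOXL3, 18% of the 55. Over the 14763 genes of the table with a mean of at least 1 TPM, 1855 (12.6%) met the same rule in that direction. In the other direction the 3 genes were 5.45% of the 55, and 1850 of the 14763 genes (12.5%) met the rule. Of the 55 genes, 34 passed the filter on the mean and 21 did not, and the 10 and the 3 genes were all among the 34. The shares of 18% and 5.45% are of all 55 genes, whereas 12.6% and 12.5% are of genes that passed the filter. These shares therefore do not have the same base.

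COL4A5 and COL4A6 encode the alpha5 and alpha6 chains of type IV collagen and lie head to head on chromosome X, with the annotated starts of their nearest transcripts 380 bases apart. The 250 bases upstream of COL4A5 are shown because the pair moved together, as described below. They lie at chrX:108439588-108439837 on the plus strand of GRCh38 (RefSeq), and the 121 bases in capitals also belong to the 250 bases upstream of COL4A6, which is read from the other strand.
COL4A5: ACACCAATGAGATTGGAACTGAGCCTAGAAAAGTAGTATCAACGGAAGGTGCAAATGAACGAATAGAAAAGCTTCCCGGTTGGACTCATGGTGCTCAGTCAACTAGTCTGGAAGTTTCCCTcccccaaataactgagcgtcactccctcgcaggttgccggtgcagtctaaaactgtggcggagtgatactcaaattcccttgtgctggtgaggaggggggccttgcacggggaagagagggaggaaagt
Neither of the 2 windows that face each other held any of the 5 motifs searched.

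Among the genes with a median above 3 estimated counts on both sides, COL17A1 and COL18A1 had the largest ratio of medians toward the SMAD4-low and the SMAD4-expressing side, so their upstream letters are shown as well. Matches on either strand to a TATA box (TATAAA) and a GC box (GGGCGG) are in capitals. The COL17A1 window is chr10:104085881-104086130 on the minus strand. COL18A1 has 2 annotated starts, with windows at chr21:45404915-45405164 and chr21:45455272-45455521 on the plus strand.
COL17A1: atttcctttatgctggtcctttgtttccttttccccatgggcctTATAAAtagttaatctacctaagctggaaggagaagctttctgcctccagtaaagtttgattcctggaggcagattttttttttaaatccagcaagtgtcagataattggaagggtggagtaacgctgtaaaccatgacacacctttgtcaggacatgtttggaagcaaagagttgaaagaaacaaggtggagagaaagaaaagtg
COL18A1 first start: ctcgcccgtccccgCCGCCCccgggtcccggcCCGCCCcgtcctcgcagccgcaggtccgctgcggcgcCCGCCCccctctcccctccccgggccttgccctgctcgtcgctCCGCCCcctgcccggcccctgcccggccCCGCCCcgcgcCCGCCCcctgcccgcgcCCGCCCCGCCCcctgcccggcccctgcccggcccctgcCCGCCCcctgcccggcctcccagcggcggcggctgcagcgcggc
COL18A1 second start: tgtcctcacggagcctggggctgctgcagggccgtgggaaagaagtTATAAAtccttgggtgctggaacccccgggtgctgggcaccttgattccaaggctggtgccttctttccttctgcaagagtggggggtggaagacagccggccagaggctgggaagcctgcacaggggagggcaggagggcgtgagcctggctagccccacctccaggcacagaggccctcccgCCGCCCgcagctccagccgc
The window of COL17A1 held 1 TATA match, 206 bases before the start, and its G and C content was 40.4%. The first COL18A1 window held 9 GC boxes, some of them overlapping, at a G and C content of 88.4%, which is higher than in 99.9% of the 35116 promoter windows of the RefSeq table. The second COL18A1 window had 1 match to each motif. Of the 55 genes, 41 had a window in that table, and 27 of the 41 held a GC box in at least 1 window, against 42.6% of all windows. A TATA match occurred in 8 of the 41, against 10.7% of all windows. An E-box (CAGGTG) occurred in 8 genes against 17.5% of windows, an AP-1 site (TGANTCA) in 1 gene against 6.57%, and a hypoxia response core (ACGTG) in 9 genes against 18.5%. Genes with several windows had more chances of a match, and a match shows only that the letters are present.

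Of the 6 type IV genes of the basement membrane, COL4A5 and COL4A6 were apart. COL4A5 was at 55.4, 168 and 254 TPM (lowest, median and highest) in the SMAD4-low libraries. It was at 0.113, 0.312 and 1.26 TPM in the SMAD4-expressing libraries, and the medians differed 540-fold. COL4A6 was at 45.9, 125 and 225 TPM in the SMAD4-low libraries and did not exceed 0.146 TPM, or 19.8 estimated counts, in any SMAD4-expressing library. No library of either side came near the other for these chains. COL4A1 and COL4A2, which encode the chains of the ubiquitous type IV network and are also a head-to-head pair, stayed far lower. COL4A1 was at 0.358, 2.29 and 8.2 TPM on the SMAD4-low side and at 0, 0.110 and 0.520 TPM on the SMAD4-expressing side, and 1 SMAD4-low library overlapped. COL4A2 had medians of 0.455 and 0.369 TPM, and COL4A3 and COL4A4, the remaining pair, had medians of 0.204 and 0.506 TPM or less. In the SMAD4-low libraries type IV chains thus came almost wholly from the pair on chromosome X.

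Within the SMAD4-low side COL4A5 and COL4A6 followed each other closely. Their ratio in TPM was between 1.08 and 1.71 in the 12 libraries, with a median of 1.35, although each gene varied more than 4-fold. Spearman's rho over the 12 libraries was 0.951 and Pearson's r on log2(TPM + 1) was 0.942, and without the 2 libraries farthest from the median of COL4A5 they were 0.915 and 0.908. Among the 7 SMAD4-low libraries labelled Panc1 rho was 0.964. Library 26 was lowest and library 1 next lowest for both genes. The ratio of COL4A1 to COL4A2 was less even, at 1.42 to 9.18, with a rho of 0.790.

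Hemidesmosome and anchoring fibril collagens were also higher on the SMAD4-low side. COL17A1, the transmembrane collagen of hemidesmosomes, was at 46.3, 179 and 480 TPM in the SMAD4-low libraries and at 0, 0.160 and 0.688 TPM in the SMAD4-expressing libraries. Its medians, 10306 and 10.6 estimated counts, differed 1120-fold in TPM. COL7A1, the anchoring fibril collagen, was at 74.6, 123 and 267 TPM against 9.52, 32.8 and 52.5 TPM. Its ranges were apart but its medians differed only 3.77-fold, so COL7A1 was among the highest collagens of both sides.

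Several collagens of other classes shared this direction. COL6A1, a chain of the beaded filaments of type VI, was at 39.6, 122 and 296 TPM against 5.91, 13.5 and 26.8 TPM. COL12A1, which binds to the surface of fibrils, was at 33.4, 95.0 and 181 TPM against 0.327, 1.65 and 13.5 TPM. COL8A1, a short-chain collagen of membranes such as that under vascular endothelium, was at 4.97, 26.4 and 54.8 TPM against 0.00828, 0.376 and 0.843 TPM. The ratios of the medians were 9.03 for COL6A1, 57.5 for COL12A1 and 70.2 for COL8A1. COL27A1, a fibrillar collagen of cartilage, was at 12.5, 22.1 and 46.5 TPM against 1.2, 2.07 and 4.95 TPM. COL28A1, a minor collagen of peripheral nerve, was at 1.15, 2.57 and 4.73 TPM against 0, 0.148 and 0.559 TPM. None of these 5 genes overlapped between the sides.

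**Figure D1:**
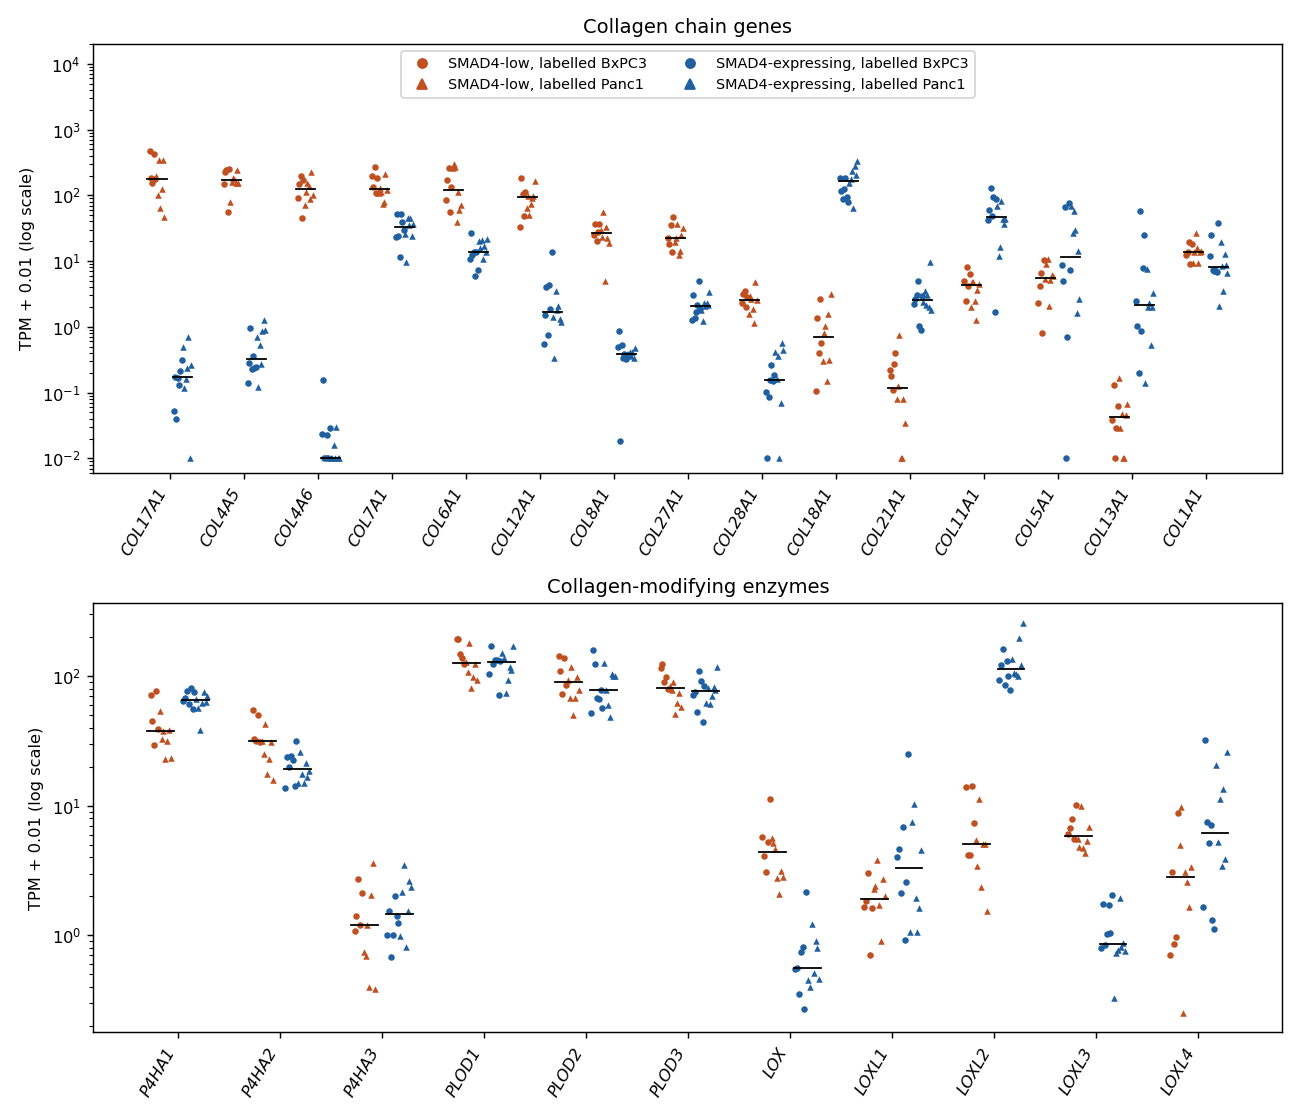
TPM plus 0.01 on a log axis for 15 collagen chain genes (top) and the 11 enzymes (bottom), with 1 point for each library, circles for the label BxPC3, triangles for the label Panc1, and black lines at the medians of the 12 SMAD4-low and 14 SMAD4-expressing libraries. COL17A1, COL4A5 and COL4A6 are at 45.9 to 480 TPM on the SMAD4-low side and at no more than 1.26 TPM on the other, COL18A1 and LOXL2 have the opposite order, and the lysyl hydroxylases overlap.

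COL18A1, a basement membrane multiplexin whose C-terminal part is endostatin, was the chain gene with the highest median in the SMAD4-expressing libraries. It was at 65.1, 164 and 338 TPM there and at 0.0971, 0.679 and 3.12 TPM in the SMAD4-low libraries, and the medians differed 242-fold. COL21A1, a fibril-associated collagen, was at 0.895, 2.53 and 9.76 TPM against 0, 0.109 and 0.737 TPM. COL15A1, the other multiplexin, had medians of 0.665 TPM on the SMAD4-low side and 0.206 TPM on the SMAD4-expressing side and overlapped, with a mean below 1 TPM.

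Other collagens were high in part of the SMAD4-expressing libraries only. COL11A1, a fibrillar collagen known for its expression in tumor stroma, was at 1.69, 46.0 and 130 TPM against 1.25, 4.36 and 8.02 TPM, and only library 22 fell into the SMAD4-low range in TPM. Without the correction for transcript length, described below, the ranges of COL11A1 were apart. COL5A1, which regulates fibril diameter, was at 1.19e-05, 11.4 and 77.3 TPM against 0.788, 5.60 and 10.6 TPM, so its range on the SMAD4-expressing side enclosed the other. COL13A1, a transmembrane collagen, was at 0.128, 2.16 and 58.3 TPM against 0, 0.0323 and 0.156 TPM. COL26A1 was at 0.244, 4.52 and 22 TPM against 0, 0.0127 and 0.297 TPM. COL13A1 and COL26A1 overlapped through 1 SMAD4-low library each.

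The classical fibril-forming chains were low or unpaired. COL1A1 was at 8.92, 13.9 and 26.5 TPM in the SMAD4-low libraries and at 2.06, 7.98 and 38.5 TPM in the SMAD4-expressing libraries. COL1A2, which supplies the second kind of chain of the type I heterotrimer, did not exceed 0.865 TPM in any library, and the ratio of COL1A1 to COL1A2 was 14 to 222 on the SMAD4-low side. COL3A1 did not exceed 1.87 TPM and COL2A1 did not exceed 1.15 TPM. COL5A2, the partner of COL5A1, was at 1.53, 4 and 5.92 TPM against 0.116, 0.587 and 3.08 TPM, with 3 SMAD4-low libraries in the overlap. COL6A2, a partner of COL6A1, was at 0.267, 2.47 and 5.49 TPM against 1.25, 9.54 and 27.9 TPM. The order of its medians was the reverse of COL6A1, but 9 SMAD4-low and 5 SMAD4-expressing libraries were in the overlap. COL6A3 had medians of 0.117 and 0.299 TPM.

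The chains of type VI collagen were therefore expressed in different proportions on the sides. The ratio of COL6A1 to COL6A2 was 24.1 to 274, with a median of 71.8, in the SMAD4-low libraries, and 0.712 to 5.85, with a median of 1.49, in the SMAD4-expressing libraries. On the SMAD4-expressing side the pair had a rho of 0.908 over the 14 libraries, and 0.902 without the 2 libraries farthest from the median of COL6A1. On the SMAD4-low side rho was 0.573. The remaining chain genes with a median of at least 1 TPM overlapped between the sides. COL9A3, a chain of the fibril-associated type IX collagen, had medians of 23.1 and 38.3 TPM on the SMAD4-low and SMAD4-expressing sides. COL16A1 had medians of 7.56 and 4.2 TPM, COL8A2 of 2.60 and 1.34 TPM, and COL9A2 of 0.953 and 1.86 TPM, in the same order.

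**Figure D2:**
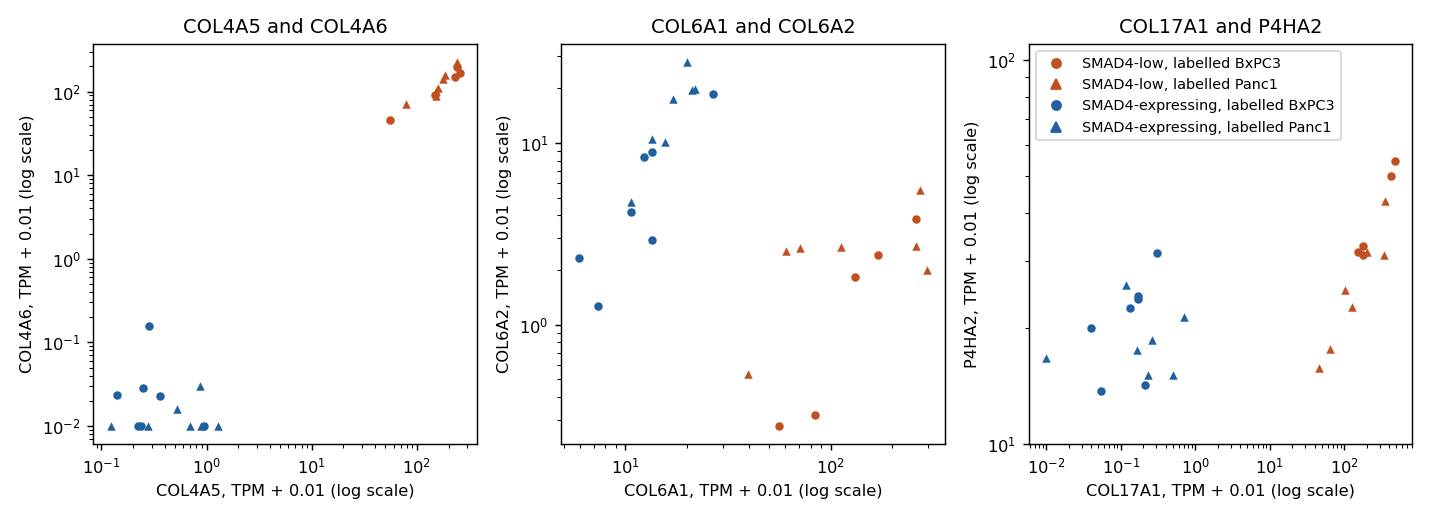
TPM plus 0.01 on log axes for 3 gene pairs, with 1 point for each of the 26 libraries, coloured by side and shaped by label. COL4A5 and COL4A6 lie along a line among the SMAD4-low libraries, the sides hold separate ranges of the ratio of COL6A1 to COL6A2, and P4HA2 follows COL17A1 among the SMAD4-low libraries (rho 0.888).

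The summed level of the 44 chain genes was 650, 1087 and 1368 TPM in the SMAD4-low libraries and 285, 380 and 567 TPM in the SMAD4-expressing libraries, so the lowest SMAD4-low library was above the highest of the other side. Type IV chains made up a median of 32.3% of this sum on the SMAD4-low side (12.3% to 49.2%) and 0.313% on the SMAD4-expressing side. Transmembrane collagens, nearly all COL17A1, made up 5.97% to 50.5% on the SMAD4-low side, with a median of 16.1%. On the SMAD4-expressing side this class made up 0.0467% to 20.5%, with a median of 0.646%, so its ranges overlapped. Multiplexins had medians of 0.119% on the SMAD4-low side and 44% on the other. Fibrillar collagens made up 3.58% to 7.67% of the sum on the SMAD4-low side and 10.5% to 45.2% on the SMAD4-expressing side.

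The gene with the highest level also varied between libraries. Among the SMAD4-low libraries COL17A1 and COL4A5 each led in 4, COL6A1 in 2, and COL7A1 and COL12A1 in 1 each. Among the SMAD4-expressing libraries COL18A1 led in 11 and COL11A1 in 3.

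**Figure D3:**
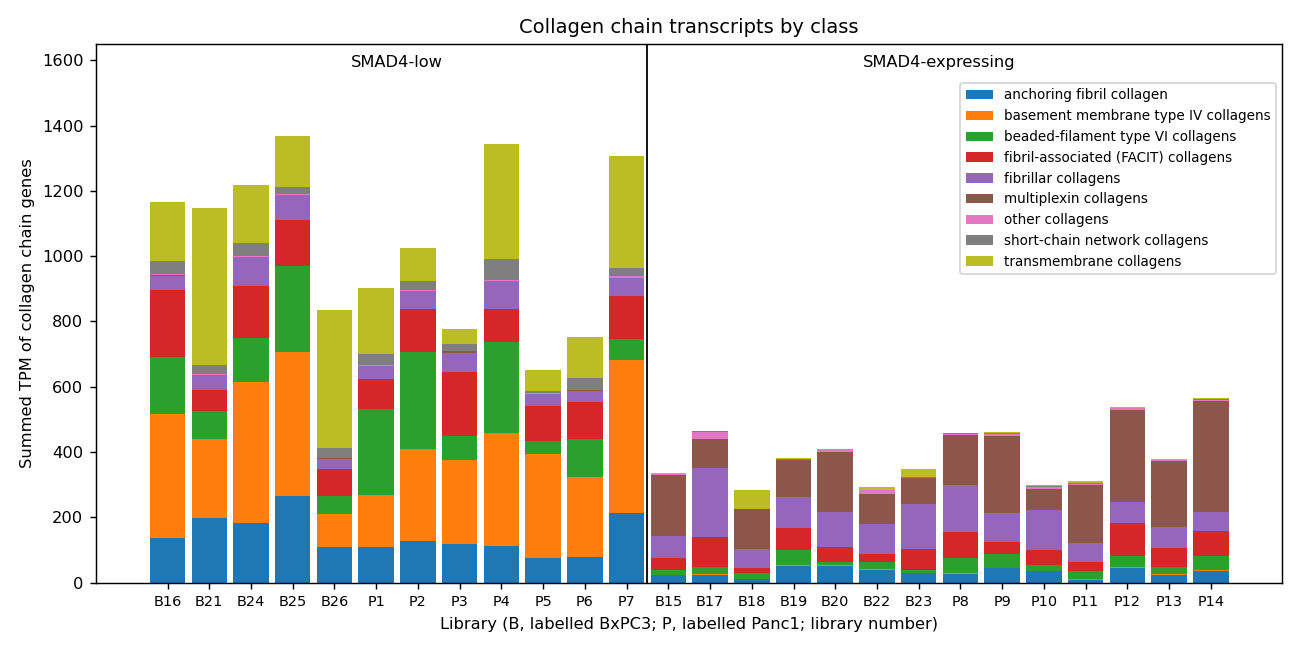
Summed TPM of the 44 collagen chain genes in each of the 26 libraries, stacked by class, with the SMAD4-low libraries on the left. Type IV, type VI, type VII and transmembrane collagens fill most of the bars on the left, which reach 650 to 1368 TPM, and multiplexin and fibrillar collagens fill most of the bars on the right, which reach 285 to 567 TPM.

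Among the enzymes, the hydroxylase genes overlapped between the sides, and LOXL2 and LOXL3 of the lysyl oxidases did not. PLOD1 was at 81.3, 127 and 194 TPM in the SMAD4-low libraries and at 72.1, 128 and 172 TPM in the SMAD4-expressing libraries. PLOD2, which hydroxylates the telopeptide lysines used in cross-links, was at 50.0, 89.8 and 143 TPM against 48.3, 78.3 and 158 TPM. PLOD3, which also has glycosyltransferase activity, was at 50.6, 81.7 and 124 TPM against 44.2, 76.8 and 117 TPM. P4HA1, a catalytic subunit of prolyl 4-hydroxylase, was at 22.9, 38.0 and 76.3 TPM against 38.3, 65.2 and 81.7 TPM. P4HA2 had the opposite order, at 15.8, 31.3 and 54.7 TPM against 13.7, 19.3 and 31.4 TPM, and P4HA3 had medians of 1.2 and 1.45 TPM. All 6 hydroxylase genes overlapped between the sides, and their medians differed by no more than 1.72-fold.

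LOXL2 and LOXL3 separated the sides in opposite directions. LOXL2 was at 1.54, 5.05 and 14.1 TPM in the SMAD4-low libraries and at 78.1, 113 and 257 TPM in the SMAD4-expressing libraries, a 22.4-fold difference of medians. LOXL3 was at 4.28, 5.80 and 10 TPM against 0.321, 0.848 and 2.04 TPM, a 6.83-fold difference. LOX, the founding member of the family, was at 2.07, 4.37 and 11 TPM against 0.259, 0.547 and 2.17 TPM, and 1 library of each side overlapped. The SMAD4-expressing library in the overlap was library 23, and without it, or with another scaling of the libraries, the ranges of LOX were apart. LOXL1 was at 0.693, 1.91 and 3.82 TPM against 0.912, 3.30 and 25 TPM. LOXL4 was at 0.242, 2.82 and 9.83 TPM against 1.11, 6.17 and 32.2 TPM. LOXL1 and LOXL4 overlapped widely.

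The proteins that fold, secrete, cut and bind collagen were examined as 4 lists, to be read beside the 12.6% and 12.5% of all genes that were apart in each direction. Of 17 chaperones and further modifying enzymes, of which 16 passed the filter on the mean, 2 met the rule on the SMAD4-low side and 2 on the SMAD4-expressing side. SERPINH1, the collagen chaperone HSP47, was at 370, 545 and 665 TPM against 48.2, 105 and 145 TPM. PPIB, a prolyl isomerase, was at 636, 889 and 1162 TPM against 369, 422 and 635 TPM, so that its ranges nearly touched. P3H2, a prolyl 3-hydroxylase active on type IV collagen, had the opposite order, at 4.90, 14.7 and 26.4 TPM against 75.4, 112 and 191 TPM. SPARC, a collagen-binding matrix protein, was at 0.0313, 0.342 and 0.746 TPM against 6.47, 21.9 and 374 TPM.

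None of the 9 genes for procollagen secretion, all of which passed the filter, met the rule. Of 9 propeptide proteinases and enhancers, 5 passed the filter, and BMP1 and TLL2 were higher on the SMAD4-low side and PCOLCE was higher on the SMAD4-expressing side. BMP1, the procollagen C-proteinase, was at 73.5, 94.5 and 126 TPM against 6.74, 8.48 and 13 TPM, and PCOLCE, which enhances it, was at 2.14, 3.46 and 7.07 TPM against 10.7, 19.8 and 34.4 TPM. BMP1 and PCOLCE thus had opposite orders. PCOLCE2, another enhancer on the list, did not share the order of PCOLCE. Its ranges overlapped between the sides, and its median was 1.16-fold higher on the SMAD4-low side. Of 10 collagen receptors, 6 passed the filter, and ITGA1 was higher on the SMAD4-low side, at 11.6, 26 and 40.2 TPM against 0.155, 0.801 and 2.81 TPM. MRC2, an endocytic receptor that takes up collagen for degradation, was higher on the SMAD4-expressing side, at 54.2, 75.5 and 104 TPM against 2.68, 9.62 and 16.7 TPM.

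The summed levels of fibroblast, endothelial and leukocyte markers were below those of epithelial markers on both sides, but single markers were not all near 0. The summed level of 10 fibroblast markers was 6.92 to 29.3 TPM in the SMAD4-low libraries and 1.81 to 29.7 TPM in the SMAD4-expressing libraries. LUM, POSTN, TCF21 and DPT were below 1 TPM in all 26 libraries, and DCN did not exceed 1.07 TPM. PDGFRA and ACTA2, of the same list, met the rule on the SMAD4-low side. THY1 had the opposite order, with medians of 0.0788 and 11.8 TPM on the SMAD4-low and SMAD4-expressing sides, and PDGFRB had medians of 0.0894 and 1.05 TPM, both with overlap. The sum of 6 endothelial markers was 3.35 to 17.5 TPM against 0.439 to 5.39 TPM. Of these, CDH5 met the rule on the SMAD4-low side, at 1.04 to 13.6 TPM against no more than 0.0427 TPM. The sum of 6 leukocyte markers was 5.71 to 50.4 TPM against 47.6 to 145 TPM, most of the latter from CD68. CD68 met the rule on the SMAD4-expressing side, at 5.27 to 26.9 TPM against 42.5 to 141 TPM. CD14 had medians of 9.77 and 0.757 TPM on the SMAD4-low and SMAD4-expressing sides, with overlap. PTPRC, which defines leukocytes, did not exceed 0.535 TPM. The sum of 6 epithelial markers was 4026 to 8126 TPM against 2067 to 8437 TPM, and its members differed in direction. EPCAM was at 239 to 424 TPM against 7.49 to 25.5 TPM, whereas KRT8 had medians of 461 and 2053 TPM and KRT18 of 521 and 1598 TPM on the SMAD4-low and SMAD4-expressing sides.

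For 3 collagen genes whose TPM overlapped between the sides, the length of the transcripts to which reads were assigned did not overlap. The table gives each gene's effective transcript length in each library, the mean over its transcripts weighted by their estimated levels. Of the 20 genes with a median of at least 1 TPM on both sides, COL11A1, COL9A3 and COL1A1 had lengths that were apart and at least 1.5-fold longer in the SMAD4-expressing libraries. Over the 12381 genes with such medians, 104 (0.840%) met this rule. None of the 20 was longer in the SMAD4-low libraries, where 87 genes (0.703%) met it. Levels of single transcripts are not given, so the transcripts behind these lengths were not identified. For COL9A3 and COL1A1 the highest lengths exceeded the longest transcript of the gene in the GENCODE release used for matching. Reads had been assigned to a different annotation, whose transcript lengths were not available, so the cause was not tested. The lengths of COL9A3 and COL1A1 are therefore compared between the sides and not read as sizes of real transcripts.

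COL11A1 had a length of 262, 360 and 862 bases in the SMAD4-low libraries and of 4794, 5887 and 6327 bases in the SMAD4-expressing libraries. COL9A3 had 830, 1005 and 1181 bases against 2595, 2794 and 3013 bases. COL1A1 had 1943, 2555 and 3129 bases against 3253, 4011 and 6260 bases. The reads of COL11A1 in the SMAD4-low libraries were thus assigned mainly to short transcripts, and they were few, with a median of 32.9 counts per library in the authors' resamples against 5517 in the SMAD4-expressing libraries. TPM divides by these lengths. In CPM of the resamples, which relate counts to the library total without a correction for length, COL11A1 differed 178-fold between the medians, against 10.6-fold in TPM. Its ranges, which overlap in TPM, were apart in CPM, with a highest SMAD4-low value of 1.78 and a lowest SMAD4-expressing value of 5.62. COL9A3 differed 5.61-fold against 1.66-fold, and its ranges overlapped in CPM too, at 11.6 to 17.9 against 11.8 to 181. For COL1A1 the higher median changed side, with 24 on the SMAD4-low side and 28 on the SMAD4-expressing side in CPM. That difference was only 1.16-fold, and the COL1A1 range of 16.5 to 51.4 on the SMAD4-low side lay within the 4.86 to 160 of the other. The median lengths of LOXL4 and PLOD1 differed by no more than 1.02-fold between the sides.

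**Figure D4:**
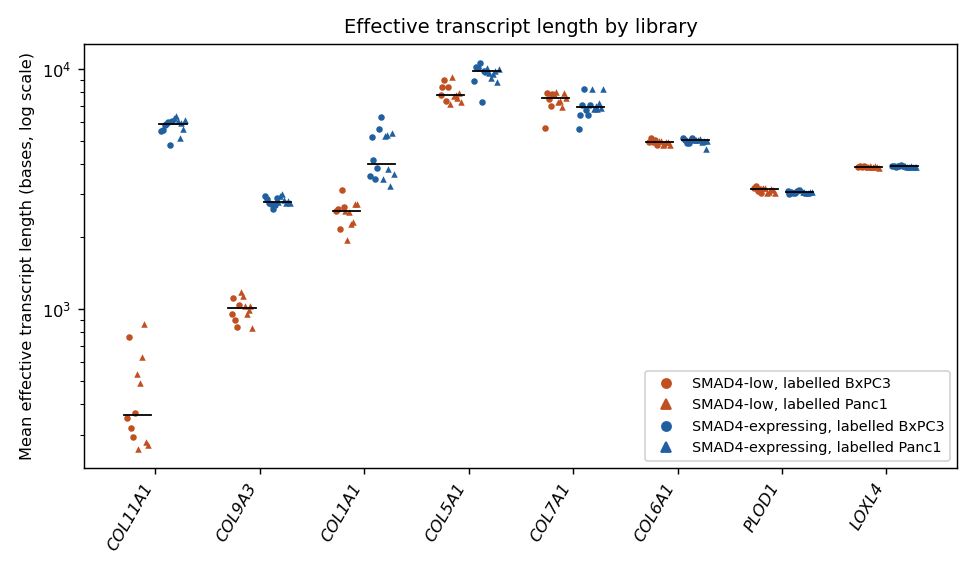
Effective transcript length in bases, on a log axis, of 8 genes in each library, with black lines at the medians of the sides. COL11A1, COL9A3 and COL1A1 are longer in all 14 SMAD4-expressing libraries than in any SMAD4-low library, and the other 5 genes overlap.

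The SCDCLs also differed within each side, and for many collagen genes the spread was above the median over all genes. On the SMAD4-expressing side the SD of log2(TPM + 1) between libraries was 2.13 for COL5A1, 1.67 for COL13A1, 1.45 for COL11A1 and 1.28 for LOXL4. The median SD over the 10721 genes with a median of at least 5 TPM was 0.264, and 3 of them had a larger SD than COL5A1. COL5A1 was at 58.6 to 77.3 TPM in libraries 8, 9, 17 and 22, and near 0 in library 18. COL13A1 was at 58.3 TPM in library 18 and at 25.3 TPM in library 23, and at no more than 7.85 TPM in the other 12. Library 23 was highest of its side for COL1A1 (38.5 TPM), COL12A1 (13.5 TPM) and LOXL1 (25 TPM).

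Variation on the SMAD4-low side was smaller for these genes and larger for others. The SD was 1.05 for COL17A1, 1.01 for COL6A1 and 0.984 for LOXL4, against a median of 0.275 over 10959 genes. COL17A1 was above 340 TPM in libraries 4, 7, 21 and 26 and below 70 TPM in libraries 3 and 5. Library 26 was the lowest of its side for 8 of 29 genes, COL4A5, COL4A6 and COL5A1 among them, but next to highest for COL17A1. Library 5 was likewise the lowest for 8 of the 29. COL9A3 was the most even gene, with an SD of 0.248. Between resamples of the reads of 1 library, the median SD was 0.00814 to 0.166 for the genes described on this side, below the SD between libraries for each gene. Resamples cover counting and assignment error only, not culture or library preparation.

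**Figure D5:**
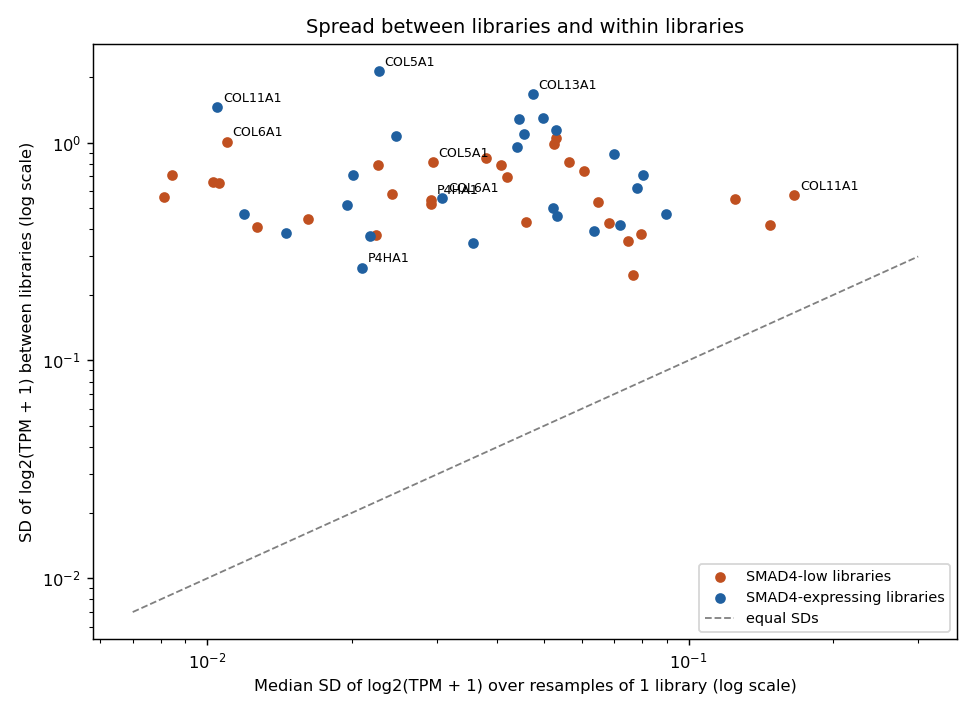
SD of log2(TPM + 1) between libraries of a side against the median SD over resamples of the reads of 1 library, both on log axes, for the genes with a median of at least 1 TPM on that side. All points are above the line of equal SDs, and COL5A1, COL13A1 and COL11A1 on the SMAD4-expressing side are highest.

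Some genes varied together over the 12 SMAD4-low libraries. PLOD1 and PLOD3 had a rho of 0.958, PLOD1 and P4HA2 of 0.944, and PLOD3 and P4HA2 of 0.930. COL17A1 had a rho of 0.909 with PLOD2 and of 0.902 with LOXL2. Without the 2 libraries farthest from the median of the first gene these 5 values were 0.939, 0.915, 0.976, 0.964 and 0.830, in that order. The pairs were among the highest of 406, whose median rho was 0.224. PLOD1, PLOD3 and P4HA2 were also positively correlated over the 14 SMAD4-expressing libraries. Their pairs had a rho of 0.582, 0.565 and 0.604 there, in the order above. COL17A1, which is near 0 on that side, had a rho of 0.134 with LOXL2. COL5A1 and PLOD3 had a rho of -0.895 on that side (-0.867 without 2 libraries), and LOXL2 and LOXL4 had 0.802, among 300 pairs with a median of 0.0945. The values of a library share its total and its cells, and these correlations are given as descriptions.

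The labels were then compared, as they are the groups that the study gives. With edgeR's quasi-likelihood test over all 26 libraries, 0 of the 42 collagen and enzyme genes tested were called at an adjusted p under 0.05 and a log2 fold change over 1, and 0% of all 16008 genes were called. Unadjusted p was below 0.05 for 3 of the 42 by edgeR, 3 by DESeq2 and 1 by limma. Over all 16008 genes it was below 0.05 for 367 by edgeR. Since the labels are mixed on both sides of the SMAD4 split, the comparison was repeated within each side. Among the SMAD4-low libraries, 5 labelled BxPC3 and 7 labelled Panc1, edgeR called 0 of 42 and 0% of 16124 genes. An unadjusted p below 0.05 was found for 7 of the set by edgeR (8 by DESeq2, 5 by limma). Over all 16124 genes edgeR gave 1840 such values. Among the SMAD4-expressing libraries, 7 of each label, edgeR called 0 of 37 and 0% of 15161 genes. There 3 of the set had an unadjusted p below 0.05 by edgeR (3 by DESeq2, 1 by limma), and so did 700 of the 15161 genes. DESeq2 and limma called none of the set in any of these comparisons. Over all genes DESeq2 called 1 among all libraries, 11 among the SMAD4-low and 0 among the SMAD4-expressing libraries. By limma 0 genes were called in each. Unadjusted p was below 0.05 for 460, 2004 and 805 genes by DESeq2, in that order, and for 346, 1900 and 672 by limma. Both labels occurred on both sides, and part of them went against the SMAD4 state known for the labelled line. These results therefore describe the labels and cannot show whether BxPC3 and Panc-1 differ in these genes.

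The genes with an unadjusted p below 0.05 included hydroxylases and chain genes. PLOD3 had a log2 difference (Panc1 minus BxPC3) of -0.48 ± 0.18 (SE) in the SMAD4-low libraries, with an edgeR adjusted p of 0.409. COL7A1 had -0.53 ± 0.23, with an edgeR adjusted p of 0.421. COL8A2 had 1.08 ± 0.46 there, with an edgeR adjusted p of 0.419. In the SMAD4-expressing libraries COL18A1 had 0.74 ± 0.30 and COL6A2 had 1.26 ± 0.52, both with an edgeR adjusted p of 0.982. COL13A1, which was highest in libraries 18 and 23, both labelled BxPC3, had -2.45 ± 1.06 at the same adjusted p. A label effect that differed between the sides was called by edgeR for 0 of 48 genes of the set and for 0% of 17456 genes. DESeq2 called 0 of the 48 and 12 of the 17456. Unadjusted p by edgeR was below 0.05 for 5 of the 48 and for 1357 of the 17456. The smallest of the 5 was that of LOXL2. Its label difference was 1.27 ± 0.54 greater on the SMAD4-expressing side in log2, with an edgeR adjusted p of 0.626.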

How the data were processed

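Messenger RNA of 26 SCDCLs was sequenced once each, from polyadenylated RNA with strand kept. The authors assigned the reads with kallisto 0.46.1 to Ensembl 103 transcripts of GRCh38 and deposited a table of TPM, estimated counts (expected counts), effective transcript length and 30 resampled estimated counts per library. The deposited estimated counts were made from TPM, mean transcript length and the library total, so both units move with the transcripts to which reads were assigned. Resampled counts as deposited by the authors, 5 of the 30 per library, are not rescaled this way and measured counting and assignment error. Genes were matched by Ensembl identifier to GENCODE 44 for 36315 of 41078 genes. Windows of 250 bases came from RefSeq (GRCh38.p14). The closest pair of libraries differed by a median of 0.147 in log2, more than 2 resamples of 1 library (0.0373 at most).

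Groups came from the labels, except the split at a SMAD4 level of 1 TPM, which was described without a test. A gene was apart where the ranges did not overlap and medians differed at least 2-fold, among genes with a mean of at least 1 TPM. Estimated counts were rounded and tested with edgeR 4.0.16 (quasi-likelihood, TMM, filterByExpr, Benjamini-Hochberg over all genes), with DESeq2 1.42.0 and limma 3.58.1 as alternatives, in R 4.3.3. Pearson's r used a pseudocount of 1. Genes with a median of at least 1 TPM on a side were described singly, and other genes by range or count. The set, lists and split were chosen with earlier results of these data known. The labels name no culture replicates, so p-values measure the spread between libraries of different clones. The test steps were checked on simulated data. Libraries are named by the number in their labels. Responses to gemcitabine and protein data were not analysed here.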

Additional observations from a re-analysis of the deposited data

How the results depend on the processing

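The number of genes of the set that were apart stayed within 1.5 times under every alternative run. It was 8 to 11 for the SMAD4-low side and 2 to 4 for the SMAD4-expressing side with TMM-scaled CPM, size-factor scaling, a mean of at least 0.1 or 5 TPM, no fold or a 4-fold minimum, a SMAD4 threshold of 10 TPM, and each library left out in turn. A mean of at least 5 TPM removed COL28A1, LOXL3 and COL21A1, a 4-fold minimum removed COL7A1, and either other scaling added LOX. Leaving out a library gave 10 to 11 and 3 to 4 genes. LOX was added without library 6 or 23 and COL4A1 without library 26 on the SMAD4-low side. On the SMAD4-expressing side COL26A1 was added without library 16, COL13A1 without library 1 or 8, and COL11A1 without library 22. The median difference over all genes between the sides was 0.0219 in TPM, 0.0288 in CPM and -0.0125 after size-factor scaling, in log2. No gene of the set was called between the labels with another test, normalization or filter, with SMAD4 state as a covariate, or with any library left out. No paired analysis was possible because the labels share no library numbers. Levels under about 0.1 TPM rest on few counts, and depth limits what can be said of them.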
